A study of Mus musculus with 4 samples.

Results

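The genes of the mitochondrial ribosomal proteins were followed in MC38 cells, a mouse colon carcinoma line, with and without the transcription factor subunit CBFβ. Members were taken by symbol, as every gene whose name starts with Mrpl or Mrps followed by a number. This gave 78 of the 26322 genes listed, 49 named for the large subunit (Mrpl) and 29 for the small subunit (Mrps), and all 78 passed the minimum level set for testing. The WT libraries come from cells electroporated with Cas9 protein and a non-targeting guide (sgNT), and the CbfbKO libraries from cells that received Cas9 with a single guide against Cbfb (sgCbfb), so that both groups share the line, the electroporation and the exposure to Cas9. Each group has 2 libraries. The labels do not say whether replicates were separate cultures, so p-values measure the spread between these libraries, and cells were harvested at least a week after editing with no word of cloning. The comparison asks whether the gene programme for the mitochondrial ribosome differs once CBFβ is lost.

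Mitochondria carry their own ribosome, which translates the few messages of the mitochondrial genome, all of them for inner-membrane subunits of the respiratory chain and the ATP synthase. Its ribosomal RNAs are encoded in mitochondrial DNA, whereas every protein of it is encoded in the nucleus, made in the cytosol and imported. The large subunit joins amino acids and holds the exit tunnel, and the small subunit binds the message and decodes it. Some of the proteins descend from bacterial ribosomal proteins and others are found only in mitochondria. CBFβ is the partner that strengthens DNA binding by the RUNX transcription factors.

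Expression was read by 3′ mRNA sequencing, where a transcript is sampled only near its end. A level in CPM, the reads of a gene scaled to a common library total, therefore does not grow with gene length. The libraries held from 3189035 to 3907936 reads, and 1 read was worth between 0.256 and 0.314 CPM. Cbfb, the edited gene, had 295 and 285 reads in WT and 125 and 125 in CbfbKO. Its log2 fold change, here always CbfbKO minus WT, was -1.27 with a standard error of 0.12 (limma, adjusted p = 1.76e-07). Without CbfbKO replicate 1 or 2 it was -1.12 or -1.41 and did not pass (limma, adjusted p = 0.267 and 0.193). Of 9 epithelial marker genes none exceeded 4 reads in any library, with Epcam, Cdh1 and Krt18 among them, and 3 were at 0 in all 4. Of 5 blood cell and 3 endothelial markers none exceeded 1 read. The markers of colon epithelium were thus at or near 0 in this line. Of 4 fibroblast markers 3 were tested, and each had both CbfbKO libraries above both WT libraries, as did 3342 of all 12207 tested genes. The PDGF receptor gene Pdgfra had 121 and 91 reads in WT and 169 and 152 in CbfbKO, a log2 fold change of 0.53, from 0.34 to 0.72 with each library left out (limma, adjusted p = 0.0515, under 0.05 in 5 of 15 alternatives). Pdgfrb had between 4 and 16 reads and Col1a1 between 8 and 13, with log2 fold changes of 0.82 and 0.41 that did not pass (limma, adjusted p = 0.402 and 0.695). The fourth, Col1a2, was below the minimum level, with 2 and 1 reads in WT and 0 and 1 in CbfbKO. Their part in the members' values was not tested. In these bulk libraries, a difference in RNA per cell and a difference in the mix of cells cannot be told apart.

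Of the mitochondrial ribosomal protein genes, only Mrps28 had an mRNA level that passed the test between CbfbKO and WT. With an adjusted p under 0.05 in limma's test over 12207 genes, 0 of the 78 members were higher and 1 was lower in CbfbKO. Over all tested genes 2.83% passed, 1.57% higher and 1.25% lower, and the members' share of 1.28% was not above that background. The member that fell was Mrps28 of the small subunit, and 0 of 49 Mrpl genes passed. At an unadjusted p under 0.05, 6 members (7.69%) stood out, 4 Mrpl and 2 Mrps, against 14.9% of all tested genes. Voom on the recovered reads, the test the study names, called the same 1 gene among the members, where 454 of all tested genes (3.72%) passed. It also found 6 members at an unadjusted p under 0.05, against 15.5% of all tested genes. The WT and CbfbKO libraries did not overlap for 27 members (34.6%), against 44.1% of all tested genes.

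**Figure D1:**
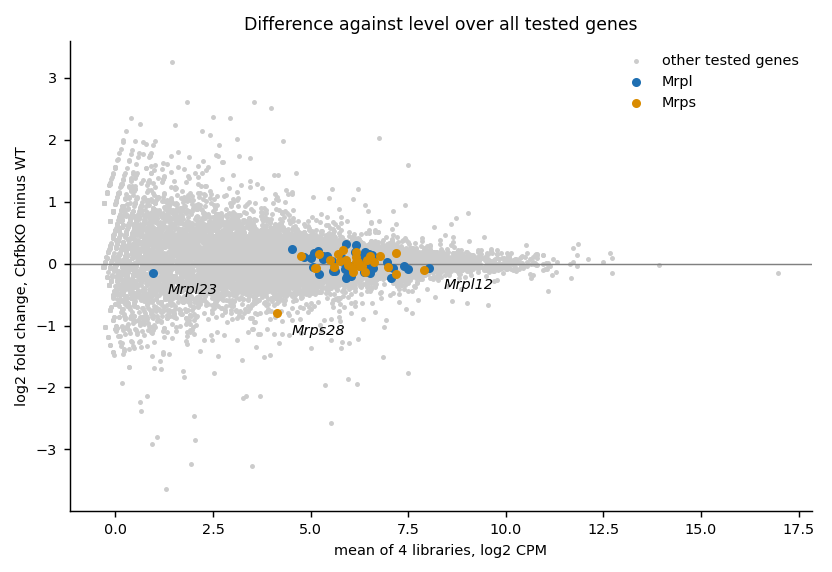
Log2 fold change of CbfbKO over WT against the mean level of the 4 libraries in log2 CPM, for every tested gene (grey), the 49 Mrpl genes (blue) and the 29 Mrps genes (orange). Leaving out Mrps28 at -0.80, the members lie between -0.24 and 0.31. Mrpl23, at -0.15, stands apart only by its low level.

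Most members were covered well enough to bound changes of 1.41-fold or more. Leaving out Mrpl23, every member had at least 38 reads in each library, and the median standard error of a member's log2 fold change was 0.11. The 95% interval lay within 0.5 on either side of 0 on the log2 scale, a 1.41-fold change, for 73 of the 78 genes. It lay within 1 for 76, all but Mrpl23, which had too few reads, and Mrps28. It lay within 0.25 for only 11, although 75 of the estimates did, so smaller changes were mostly not bounded. The log2 fold changes were positive for 42 members and negative for 36, against 6958 and 5249 of all tested genes. Their median was 0.025 over the Mrpl genes and 0.028 over the Mrps genes, beside 0.039 over all tested genes. The Mrpl median was -0.0075 under quantile normalization and -0.0167 under scaling by trimmed mean of M-values (TMM), where the median over all tested genes was 0.0027 and 0.0034. With median centring and with the ribosomal RNA genes out of the totals the Mrpl median was 0.0023 and 0.0022. Over all tested genes these fits gave 0.0163 and 0.0175. Without WT replicate 2 the Mrpl median was -0.0194, beside 0.0388 over all tested genes.

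**Figure D2:**
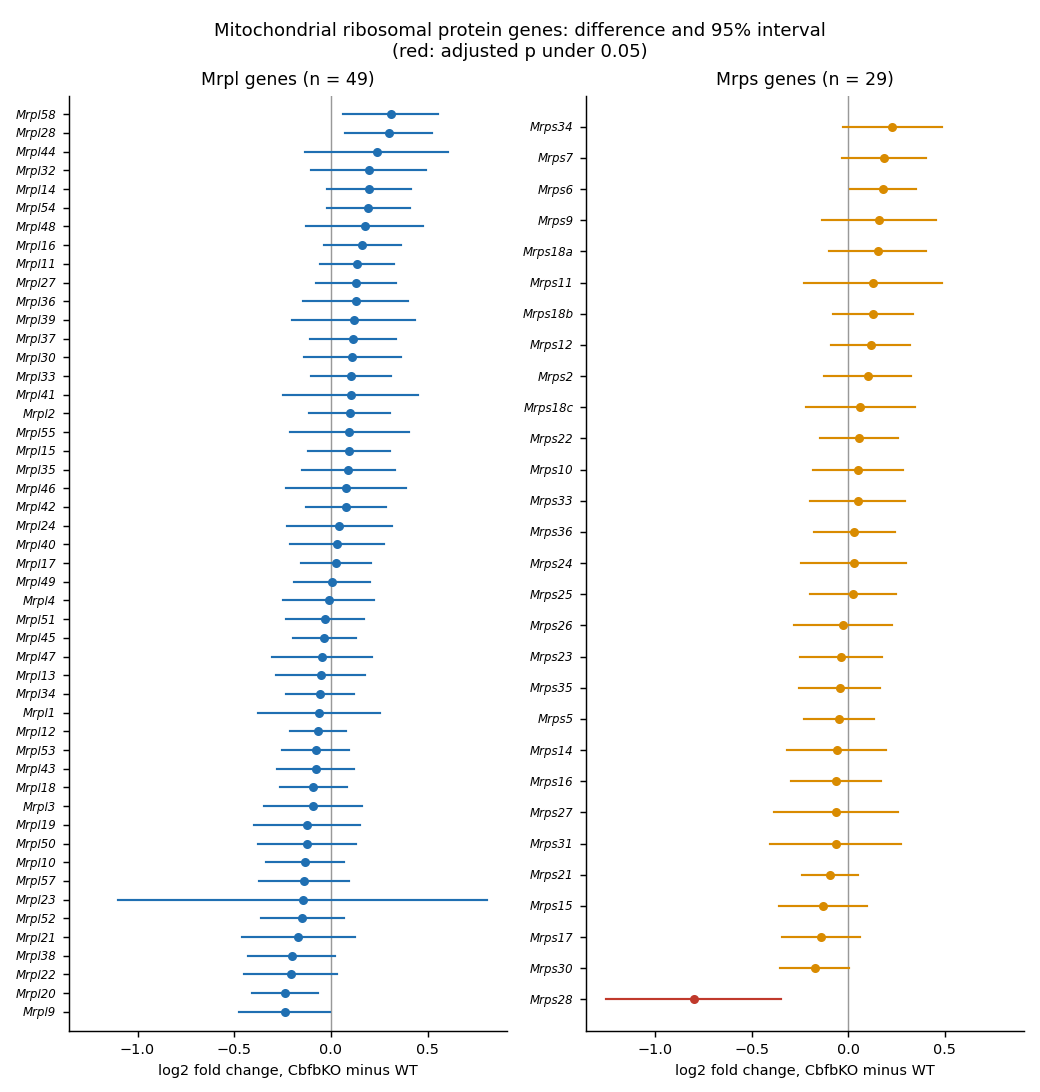
Log2 fold change of CbfbKO over WT with its 95% interval from limma for each Mrpl gene (left) and each Mrps gene (right), sorted by size. The interval of Mrps28, in red, is the widest of the small subunit and lies wholly below 0. The intervals of Mrpl9, Mrpl20, Mrpl28, Mrpl58 and Mrps6 also exclude 0, but these genes did not pass after adjustment. On the left, 0 of the 49 genes are past the threshold.

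Mrps28 encodes a small-subunit protein with a bacterial relative, and lies on chromosome 3 from 8802146 to 8923918 (GRCm38). It had 63 and 93 reads in the WT libraries and 54 and 38 in the CbfbKO libraries, which come to 18.6 and 27.9 CPM against 13.8 and 11.9 CPM. Both CbfbKO libraries lay below both WT libraries, and the WT libraries also lay apart from each other. The means were 4.54 ± 0.41 log2 CPM (SD, n = 2) for WT and 3.75 ± 0.14 log2 CPM (SD, n = 2) for CbfbKO. Mrps28 thus fell to 57.5% of its WT level, a log2 fold change of -0.80 with a 95% interval from -1.25 to -0.35 (limma, adjusted p = 0.0483). Its level over all 4 libraries was the lowest of the members after Mrpl23, although within WT Mrpl44 lay lower, at a mean of 20.8 CPM against 23.2 CPM. The call lies at the edge of the threshold. Of 15 other fits it was kept in 7 and lost in 8, with adjusted p-values from 0.00730 with the replicate number as a block to 0.840 without the filter on low values. Its log2 fold change stayed between -1.09 and -0.51 with each library left out in turn. Without WT replicate 2, the library with 93 reads, it was -0.51 with an adjusted p of 0.490 from limma. It was also not past the threshold without CbfbKO replicate 1 (adjusted p = 0.551 from limma) or without CbfbKO replicate 2 (adjusted p = 0.559 from limma), where 0 of all tested genes passed.

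**Figure D3:**
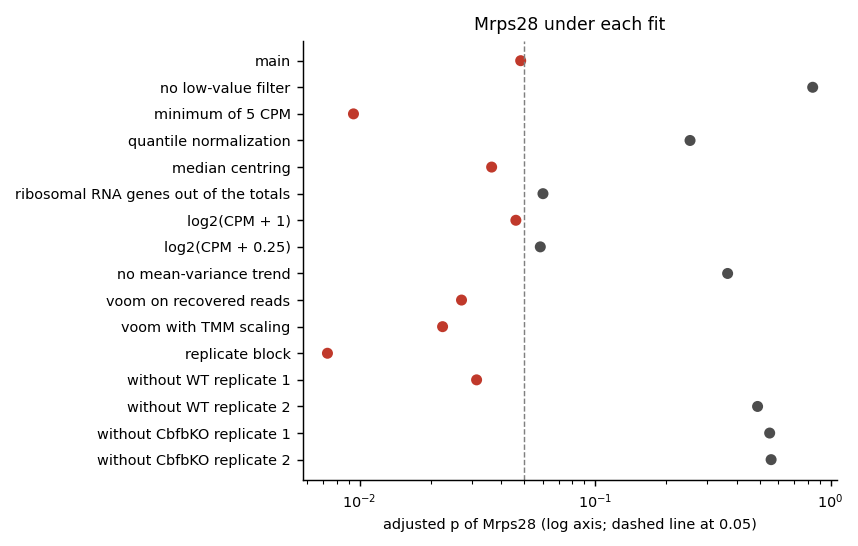
Adjusted p of Mrps28 on a log axis under the reported fit (top) and 15 alternatives, red where it is under 0.05 (dashed line). The values run from 0.00730 to 0.840 and fall on both sides of the line.

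Among the large-subunit proteins of the stalk, where translation factors dock, 0 of 3 genes passed. Over all tested genes 2.83% passed, so a count of 0 in this group, or in those below, does not set it apart. Mrpl12, the stalk protein and the member with the highest level, had 263 and 271 CPM in WT and 263 and 247 CPM in CbfbKO. Its log2 fold change was -0.07 (95% interval from -0.21 to 0.08). The values of its partners at the stalk base were -0.13 for Mrpl10 and 0.14 for Mrpl11, and neither passed (adjusted p = 0.585 and 0.542 from limma). Around the exit tunnel, where the new chain leaves, 0 of 6 genes passed. The differences were -0.21 for Mrpl22, -0.15 for Mrpl23, -0.05 for Mrpl47, -0.03 for Mrpl45, 0.03 for Mrpl17 and 0.04 for Mrpl24. Mrpl45, the tunnel protein that faces the inner membrane and the gene at rank 4 by level, had 177 and 162 CPM in WT and 166 and 165 CPM in CbfbKO, so the groups overlapped. In the central protuberance, the part at the top of the subunit that in mitochondria is rich in proteins without bacterial relatives, 0 of 7 genes passed. Those differences were -0.20 for Mrpl38, -0.09 for Mrpl18, 0.03 for Mrpl40, 0.08 for Mrpl46, 0.10 for Mrpl55, 0.13 for Mrpl27 and 0.17 for Mrpl48.

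The largest differences within the large subunit went both ways. Mrpl20, whose bacterial relative is needed early in the building of the subunit, had 487 and 487 reads in WT and 480 and 391 in CbfbKO. In CPM these were 143 and 146 against 123 and 123, and both CbfbKO libraries lay below WT. The difference of -0.24 had a standard error of 0.082 and did not pass (limma, adjusted p = 0.145, the smallest of any Mrpl gene, and from 0.0565 to 0.551 over the alternatives). Mrpl9 had 66.8 and 62.7 CPM in WT and 51.9 and 57.7 CPM in CbfbKO, a difference of -0.24 that did not pass (adjusted p = 0.326 from limma). On the other side stood Mrpl58, a peptidyl-tRNA hydrolase built into the ribosome that frees stalled chains. It had 53.0 and 54.0 CPM in WT and 74.0 and 59.6 CPM in CbfbKO, so CbfbKO replicate 1 stood above the other 3 libraries. The difference of 0.31, with a standard error of 0.12, did not pass (limma, adjusted p = 0.199), and it was 0.15 without that library. Mrpl28 had 65.4 and 62.4 CPM in WT and 84.7 and 73.1 CPM in CbfbKO, a log2 fold change of 0.30 (adjusted p = 0.164 from limma), and from 0.19 to 0.40 with each library left out. The other large-subunit genes among the 5 most positive or the 5 most negative were Mrpl44, Mrpl32 and Mrpl14 (log2 fold changes 0.24, 0.20 and 0.20), and Mrpl22, Mrpl38 and Mrpl21 (-0.21, -0.20 and -0.17). With each library left out, Mrpl44 ran from 0.10 to 0.37, Mrpl32 from 0.11 to 0.28, Mrpl22 from -0.32 to -0.10 and Mrpl21 from -0.24 to -0.10. By origin, over the 51 genes whose proteins sit in the large subunit (the Mrpl genes with Mrps18a and Mrps30), 15 of 30 with bacterial relatives were positive, with a median of 0.0068. Of those found only in mitochondria 12 of 21 were positive, with a median of 0.030. The difference between these sets was not tested.

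**Figure D4:**
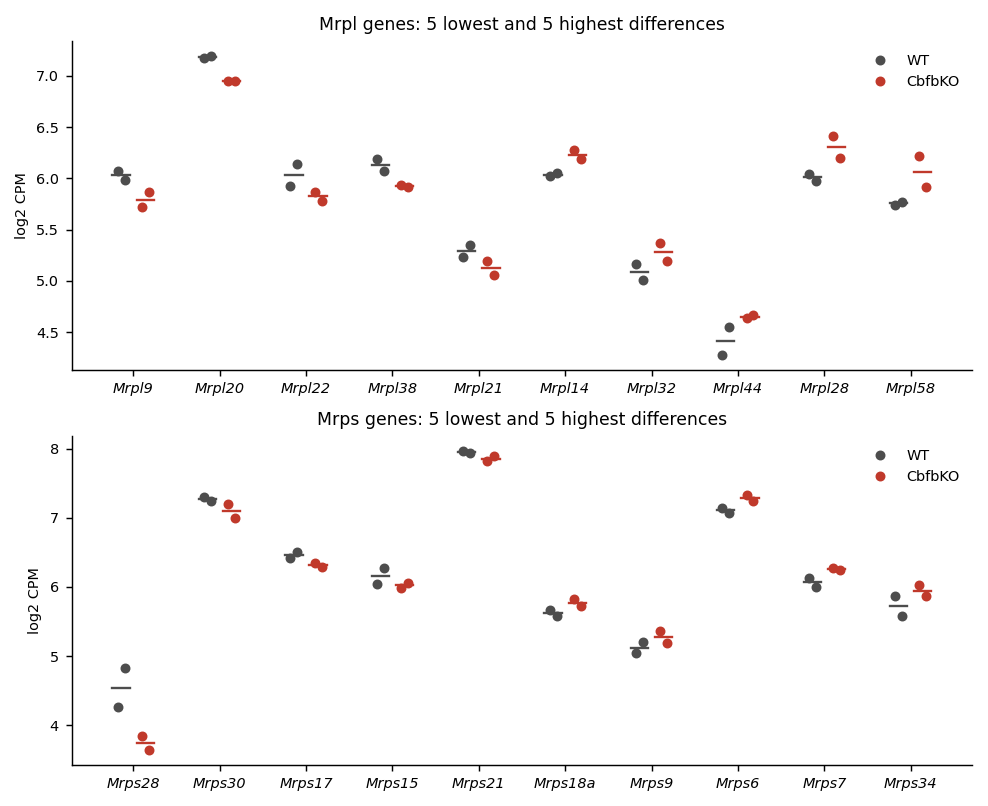
Log2 CPM of each library (points) and group means (bars) for the 5 Mrpl genes (top) and 5 Mrps genes (bottom) with the lowest and the highest log2 fold change, WT in grey and CbfbKO in red. The WT points of Mrps28 lie at 4.26 and 4.83, further apart than those of any other gene shown, and outside Mrps28 the group means differ by at most 0.31.

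In the small subunit, 0 of 3 genes whose proteins line the decoding centre and the path of the message passed. Over all tested genes the share was 2.83%. Mrps12, the protein at the decoding centre itself, had 93.9 and 81.6 CPM in WT and 96.7 and 93.1 CPM in CbfbKO. Mrps5 was at -0.05 and Mrps24 at 0.03 on the log2 scale, although the CbfbKO libraries of Mrps24 stood far apart, at 87.3 and 59.6 CPM. The most positive difference of the subunit was that of Mrps34, a protein found only in mitochondria, with 57.7 and 47.1 CPM in WT and 64.7 and 57.7 CPM in CbfbKO (log2 fold change 0.23, adjusted p = 0.410 from limma). Its groups overlapped, and the value was 0.08 without WT replicate 2 and 0.37 without WT replicate 1. Mrps7 and Mrps6, both with bacterial relatives, were at 0.19 and 0.18, and for both the CbfbKO libraries lay above WT. Mrps6 was the other Mrps gene with an unadjusted p under 0.05, on 478 and 447 reads in WT and 626 and 482 reads in CbfbKO (adjusted p = 0.296 from limma). Mrps9 was at 0.16. Below 0, after Mrps28, came Mrps30 (-0.17), Mrps17 (-0.14), Mrps15 (-0.13) and Mrps21 (-0.10). With each library left out, Mrps9 ran from 0.07 to 0.24, Mrps7 from 0.12 to 0.25, Mrps30 from -0.27 to -0.08, Mrps15 from -0.24 to -0.02 and Mrps21 from -0.13 to -0.06. Of the 16 small-subunit genes with bacterial relatives 9 were positive and 7 negative, and of the 10 found only in mitochondria 5 were positive and 5 negative.

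A few symbols do not match the place of the protein. Mrps18a and Mrps30 are named for the small subunit, but their proteins sit in the large subunit, and Mrps36 encodes a part of the oxoglutarate dehydrogenase complex and not of the ribosome. Mrps30 had 158 and 151 CPM in WT and 146 and 128 CPM in CbfbKO, a log2 fold change of -0.17 (adjusted p = 0.344 from limma). Mrps18a was at 0.15 and Mrps36 at 0.03. Sorted by place, the large subunit had 51 genes with 0 past the threshold and a median of 0.025, and the small subunit had 26 with 1 past it and a median of 0.027.

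Levels differed far more between members than between groups. The genes with the highest levels were Mrpl12, Mrps21 and Mrpl18, with mean levels in WT of 267, 247 and 187 CPM. By the mean over all 4 libraries, at the low end of the large subunit were Mrpl41, Mrpl44 and Mrpl23, and at that of the small subunit Mrps31, Mrps11 and Mrps28. Mrpl23, an exit tunnel protein, had 6 and 4 reads in WT and 5 and 4 in CbfbKO, where Mrpl44, the next Mrpl gene up, had between 64 and 95. Among the 10 members with the highest levels, 9 were shared by both groups. Summed over the large subunit, the level was 3792 and 3780 CPM in the WT libraries and 3889 and 3678 CPM in the CbfbKO libraries. Over the small subunit it was 2228 and 2215 CPM in WT and 2313 and 2150 CPM in CbfbKO. For both sums the CbfbKO libraries lay on either side of the WT libraries. The ratio of the large sum to the small sum was 1.70 ± 0.0032 (SD, n = 2) in WT and 1.70 ± 0.021 (SD, n = 2) in CbfbKO. Together the 78 genes took between 0.583% and 0.620% of all counted reads.

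**Figure D5:**
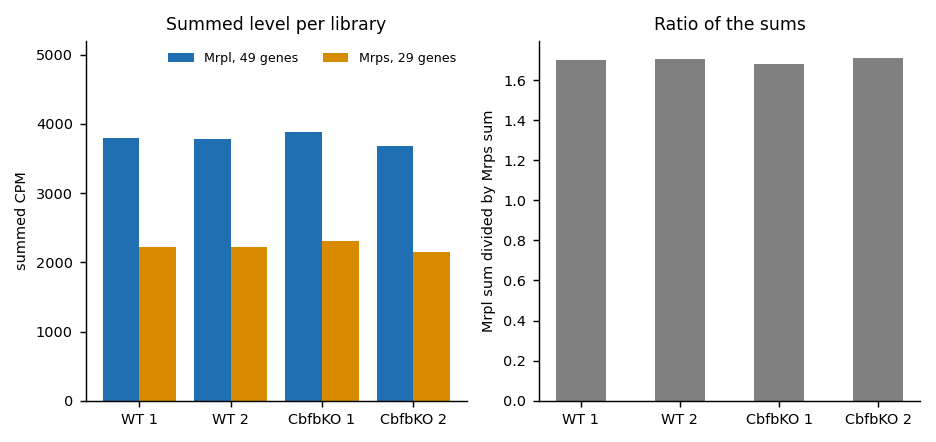
Left, CPM summed over the 49 Mrpl genes (blue) and the 29 Mrps genes (orange) in each library. Right, the ratio of the sums. CbfbKO replicate 1 has the highest and CbfbKO replicate 2 the lowest sum of either subunit, and the ratio lies between 1.68 and 1.71 in all 4 libraries.

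CbfbKO replicate 1 was above replicate 2 for 57 of the 78 members, against 6660 of the 12207 tested genes, with a median difference of 0.098 on the log2 scale, beside 0.026 over all tested genes and 0.014 between the WT replicates. CbfbKO replicate 1 also had the most reads and the smallest share of the ribosomal RNA gene Rn45s, 11.3% against 13.0% to 13.9% in the other libraries. The part of depth and of Rn45s in this difference was not tested. Without CbfbKO replicate 1 the median log2 fold change was -0.0385 for Mrpl and -0.0204 for Mrps genes, and without CbfbKO replicate 2 it was 0.0635 and 0.0874. Over all tested genes the median was 0.0333 without CbfbKO replicate 1 and 0.0592 without CbfbKO replicate 2.

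The genes have little in common in position, being spread over 17 chromosomes, with the most, 11, on chromosome 11. Many share their start region with a neighbour. For 33 of the 78 (42.3%) a protein-coding gene on the opposite strand starts head to head within 1000 bases, against 17.4% of 11193 tested coding genes. The pairs given here were picked outside the rule for named genes, for the known role of the partner or for its p. Mrpl46 and Mrps11 form such a pair with each other, their starts 412 bases apart on chromosome 7. Mrps12 lies head to head with Sars2, the mitochondrial seryl-tRNA synthetase gene, Mrpl43 with Twnk, the mitochondrial DNA helicase gene, and Mrpl36 with Ndufs6 and Mrpl47 with Ndufb5, both genes of respiratory complex I. Of the partners that were tested, 0 passed the threshold, and the smallest adjusted p was 0.230 from limma, for Fau beside Mrpl49. Over all tested genes 2.83% passed.

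Promoter windows of 300 bases, from 250 before to 50 after the start, were given by RefSeq (GRCm38.p6) for 69 of the 78 members, and Mrps28 was among the 9 not searched. Each was searched on both strands for the letters TGTGGTT, bound by RUNX factors, and for letters bound by activators of genes for mitochondrial proteins, namely GCGCATGC for NRF1, CCGGAAG for the ETS family with GABP, and AAGATGGCG for YY1. The RUNX letters were in 3 of 69 members (4.35%), against 3.54% of the tested genes with a window and 5.37% of all 27025 promoters. The ETS letters were in 36.2% of members, 19.3% of tested genes and 9.12% of all promoters. The NRF1 letters were in 11.6%, 5.82% and 2.80%, and the YY1 letters in 11.6%, 3.44% and 1.49%. Only exact matches were counted, so variants of these letters were not. A match is a description of the sequence and not of binding. Where 2.83% of all tested genes passed, 0 of the members with the RUNX letters did. These members, Mrpl27, Mrpl52 and Mrps33, had log2 fold changes of 0.13, -0.15 and 0.05. Their windows are shown because they hold the letters of the factors that CBFβ partners, and those of Mrpl9 and Mrpl58 because these members, with a window, had the lowest and the highest log2 fold change. Only the 250 bases before the start are printed, 5′ to 3′, with the searched letters in capitals.
Mrpl27, chr11:94653541-94653790, plus strand: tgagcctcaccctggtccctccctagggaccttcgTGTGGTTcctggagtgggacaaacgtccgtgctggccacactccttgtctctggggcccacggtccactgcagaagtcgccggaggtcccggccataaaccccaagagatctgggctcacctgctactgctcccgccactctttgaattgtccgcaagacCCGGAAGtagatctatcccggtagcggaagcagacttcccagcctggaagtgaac
Mrpl52, chr14:54426659-54426908, plus strand: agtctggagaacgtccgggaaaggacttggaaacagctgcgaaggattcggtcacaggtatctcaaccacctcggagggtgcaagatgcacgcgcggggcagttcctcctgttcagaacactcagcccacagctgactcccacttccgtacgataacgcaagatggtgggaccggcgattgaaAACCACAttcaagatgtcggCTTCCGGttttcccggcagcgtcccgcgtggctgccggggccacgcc
Mrps33, chr6:39810937-39811186, minus strand: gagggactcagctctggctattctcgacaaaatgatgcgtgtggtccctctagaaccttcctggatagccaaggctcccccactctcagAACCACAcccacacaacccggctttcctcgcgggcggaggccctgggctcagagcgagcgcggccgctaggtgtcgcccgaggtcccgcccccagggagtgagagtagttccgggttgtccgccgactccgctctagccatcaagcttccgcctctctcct
Mrpl9, chr3:94443086-94443335, plus strand: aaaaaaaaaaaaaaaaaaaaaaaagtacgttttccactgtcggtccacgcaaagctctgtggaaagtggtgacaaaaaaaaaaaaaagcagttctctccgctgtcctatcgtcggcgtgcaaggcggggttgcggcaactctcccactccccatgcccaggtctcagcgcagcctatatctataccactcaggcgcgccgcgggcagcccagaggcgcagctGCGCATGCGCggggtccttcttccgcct
Mrpl58, chr11:115403502-115403751, plus strand: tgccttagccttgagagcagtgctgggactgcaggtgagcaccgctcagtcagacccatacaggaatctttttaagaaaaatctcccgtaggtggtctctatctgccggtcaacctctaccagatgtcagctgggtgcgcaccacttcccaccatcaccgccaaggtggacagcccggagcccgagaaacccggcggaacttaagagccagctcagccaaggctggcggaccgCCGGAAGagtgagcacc
In Mrpl27 and Mrpl52 the capitals mark a RUNX and an ETS match each, in Mrps33 a RUNX match (its ETS match lies in the 50 bases after the start, which are not printed), in Mrpl9 the NRF1 letters on both strands, which overlap, and in Mrpl58 an ETS match. Among the 25 members with the ETS letters the median log2 fold change was -0.039, and among the 44 without it was 0.063. The corresponding values were 0.064 and 0.030 for the NRF1 letters and 0.10 and 0.025 for the YY1 letters, with 8 and 61 members each. These splits were not tested.

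Other genes of mitochondrial translation were followed from lists drawn up by function, and 0 of them passed the threshold in limma. Over all 12207 tested genes 2.83% passed, and 6958 were positive and 5249 negative. The lists were not tested against these shares. Apart from the short list that comes next, the genes of these lists given by name were picked after their values were seen. The ribosomal proteins without an Mrp symbol, namely Dap3, Aurkaip1, Chchd1, Ptcd3 and Gadd45gip1, had log2 fold changes from -0.20 (Aurkaip1) to 0.09 (Dap3). Of 25 tested assembly factors 10 were positive and 15 negative. At an unadjusted p under 0.05, against 14.9% of all tested genes, were 4 of the 25, namely Tfb1m, which methylates the small ribosomal RNA (-0.78), Ddx28 (-0.42), Dhx30 (0.34) and Mettl15 (1.01, from 0.50 to 1.52 with each library left out, on 2 and 6 reads in WT and 12 and 8 in CbfbKO). Of 15 translation factors 7 were positive, and 2 had an unadjusted p under 0.05, no larger a share than the 14.9% of all tested genes. The elongation factor gene Tufm had 28 and 23 reads in WT and 40 and 49 reads in CbfbKO (log2 fold change 0.69, from 0.41 to 0.97 with each library left out, adjusted p = 0.209 from limma). Gfm1, the gene of another elongation factor, had 255 and 287 reads in WT and 268 and 215 reads in CbfbKO (log2 fold change -0.24, from -0.34 to -0.14, adjusted p = 0.276 from limma). Of 20 genes that charge mitochondrial tRNAs 10 were positive and 10 negative, and the 2 at an unadjusted p under 0.05 were Pars2 (0.72, from 0.44 to 1.01 with each library left out) and Yars2 (-0.32, from -0.46 to -0.17). Of 13 genes for mitochondrial DNA expression 4 were positive and 9 negative, and 1 had an unadjusted p under 0.05. This was the helicase gene Supv3l1, with 121 and 137 reads in WT and 102 and 92 in CbfbKO (log2 fold change -0.47, adjusted p = 0.101 from limma, under 0.05 in 1 of 15 alternatives). Of 9 nuclear regulators 7 were negative and 2 had an unadjusted p under 0.05. These were Esrra and Myc, each at -0.41 (adjusted p = 0.174 and 0.200 from limma), whereas Nrf1 was at -0.08, Gabpa at -0.10 and Yy1 at 0.04.

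The mitochondrial ribosomal RNA genes mt-Rnr1 and mt-Rnr2 were listed at 0 in all 4 libraries and the messages of the mitochondrial genome were not analysed here, so nothing is said here of the RNA part of the ribosome or of its products. The annotation (GENCODE M21) names 5 processed copies of members, among them Mrpl23-ps1 and copies of Mrps36 and Mrpl48, and 0 of these were listed, so reads that match a copy as well as the gene may have been lost or moved. For 11 members an exon of another annotated gene overlaps the last 500 bases, Mrpl12 among them, and their levels are less certain for that reason. Mrps28 had no such neighbour.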

How the data were processed

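The authors sequenced 3′ mRNA libraries, with trimming by cutadapt 1.9, alignment by HISAT2 2.1.0 (GRCm38/mm10) and gene counts by featureCounts (2.0.1 in the submitters' processing notes, which also give the other versions, while the study's methods name an earlier one), and deposited log2 CPM values. From the values, each of the 4 columns was scaled by its own total after a prior count of 2. The annotation release and the use of strand are not given in the sources used here. Whole reads were recovered from the steps between low values (at least 99.9% of values above the floor within 0.1 of a whole number) and were used for depth, CPM levels and alternatives. Differences were tested on the deposited values with limma 3.58.1 in R 4.3.3 (mean-variance trend, two-sided, Benjamini-Hochberg adjustment over the 12207 genes that reached 0 log2 CPM in 2 or more libraries, threshold 0.05). The study names voom with limma, which needs counts. With 2 libraries against 2, an exact permutation test cannot give a p under 0.333.

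The members and gene lists were chosen with earlier results of these data known. Named genes were Cbfb, members past the threshold, the 5 most positive and 5 most negative per subunit, and the 3 with the highest and lowest levels. Also named were the stalk, exit tunnel, central protuberance and decoding genes, listed genes past the threshold, and Mrps18a, Mrps30 and Mrps36. Named outside this rule were marker genes, genes of the other lists, neighbouring pairs and members with RUNX letters. Alternatives were the filter, scaling, prior count, trend, voom, the replicate block, each library left out, an adjusted p under 0.01 and subunits by place in the ribosome. Positions are from GENCODE M21, matched by symbol for all 78 members. Figures were drawn with matplotlib 3.10.9.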

Additional observations from a re-analysis of the deposited data

How the results depend on the processing

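The counts of 0 Mrpl genes higher, 0 Mrpl genes lower and 0 Mrps genes higher were the same in every alternative run. The 1 Mrps gene lower became 0 without the filter on low values, with quantile normalization, with the ribosomal RNA genes out of the totals, with log2(CPM + 0.25), without the mean-variance trend (1461 of all genes and 1 member at an unadjusted p under 0.05) and at an adjusted p under 0.01, and ranged from 0 to 1 with each library left out. Over all tested genes, 345 passed, and 55, 83, 0 and 200 without the filter, with quantile normalization, without the trend and at 0.01. With each library left out, from 0 to 201 passed. Without either CbfbKO library 0 passed by limma, where 1104 or 1169 had an unadjusted p under 0.05 and the lone CbfbKO library was assumed to vary like WT. The replicate block gave 535 genes over all and changed no call among the members. The deviations of libraries with the same number were unrelated (correlation -0.0042 over 12207 genes). This cannot tell whether libraries with the same number were prepared together, which the labels do not say. The large subunit median log2 fold change was -0.0167 in voom with TMM scaling and from -0.0385 to 0.0635 with each library left out, and the small subunit median from -0.0204 to 0.0874. Over all tested genes the median was 0.0034 with TMM scaling and from 0.0308 to 0.0592 with each library left out. Cbfb stayed lower throughout but did not pass without the filter (log2 fold change -1.27, adjusted p = 0.290 from limma), without the trend (-1.27, adjusted p = 0.115 from limma), or without CbfbKO replicate 1 or 2, and ranged from -1.41 to -1.12 with each library left out. In every alternative run, 0 members other than Mrps28 passed. The causes were not tested. No pseudogene symbols were listed, so counting them as members was not run. Members with few reads, Mrpl23 above all, are measured less precisely.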
